A study of Mus musculus with 16 samples.

Results

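Wnt signalling was described here through 10 genes: the ligands Wnt4 and Wnt5a, the secreted antagonist Wif1, the receptor Fzd7, the R-spondin receptors Lgr4 and Lgr5, the transcription factors Tcf7l1, Tcf7l2 and Lef1, and the feedback gene Axin2. The members were chosen by gene symbol, and every array probe annotated to one of these symbols was used. 15 of the 25697 probes on the array carried a member's symbol, and they covered 9 of the 10 genes, out of 16593 named genes with a probe. No probe was annotated to Lgr4, so it has no value here.

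The tissue was the pituitary gland of mouse embryos at embryonic day 17.5, hybridised as total RNA to Illumina expression bead arrays, 1 array per sample. The mutants were 6 samples labelled Insm1 -/-, and the controls were 10 samples labelled Insm1 +/-, so controls carry 1 altered allele and no wild type was analysed here. Both groups were on a mixed C57/BL6 and 129Ola background. Insm1 encodes a zinc finger protein needed in endocrine development, and the comparison asks which transcripts depend on it in the gland. How many glands went into a sample is not stated, so the p-values speak only of the spread between samples, which may be technical.

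Wnt ligands are secreted proteins that bind Frizzled receptors on the cell surface. In the canonical branch this stabilises beta-catenin, which enters the nucleus and works with TCF/LEF factors to change the transcription of target genes, Axin2 among them. Secreted antagonists such as Wif1 bind the ligands outside the cell, and R-spondins, bound by Lgr4 and Lgr5, keep Frizzled receptors at the surface. In the developing mouse pituitary, Wnt5a is made in the ventral diencephalon above the gland and Wnt4 in Rathke's pouch, the epithelium that forms the anterior lobe.

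Median raw intensity was 96.5 to 132 on mutant arrays and 102 to 122 on control arrays, and 12928 to 13671 probes were above background (detection p-value under 0.01) on mutant arrays and 12892 to 14156 on control arrays. The arrays lay on 2 slides, with 4 mutants and 4 controls on slide 1 and 2 mutants and 6 controls on slide 2. All 6 pituitary hormone genes tested (Gh, Prl, Tshb, Cga, Lhb and Pomc) were detected in every control, which fits the labelled tissue, and fell in mutants, with changes from -1.09 for Pomc to -6.75 for Gh on the log2 scale, while Lhb was above background in 0 of 6 mutants. In whole glands, fewer cells of a type and less RNA per cell cannot be told apart. Prl, Lhb and Pomc missed the threshold within slide 2 alone. For Insm1 itself the mutants averaged 11.78 ± 0.23 (SD, n = 6) and the controls 11.42 ± 0.18 (SD, n = 10), 0.36 higher in mutants (limma adjusted p = 0.0134; missed within slide 1 and with median scaling, adjusted p = 0.249 and 0.0573). The files do not place that probe relative to the altered part of the gene, so it is no check of the genotypes, which are used below as labelled. Control 10 stood apart from the other controls. Its first principal component score was -2.42, against 18.19 to 26.83 in the other 9 controls and -37.49 to -24.71 in mutants. The change of each tested member is given below with and without it, for the brightest probe only.

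Of 8 member genes tested, 5 were higher in mutants (Wnt5a, Fzd7, Lgr5, Tcf7l1 and Tcf7l2), 2 were lower (Wnt4 and Wif1) and Axin2 was not called. Lef1 missed the detection filter and was not tested. Levels are log2 intensities after background correction and quantile normalisation, changes are mutant minus control, and a gene was called at a limma adjusted p under 0.05 for its brightest tested probe. Over all 9682 genes tested, 29.9% were called, 15.9% higher and 14% lower, against 7 of 8 members (87.5%). The members were listed with earlier results of these data known, so that share is a description. The median change was 0.40 over the 8 members and 0.033 over all genes tested. At probe level 8 of 12 tested member probes were called higher and 3 lower, beside 27.8% of all tested probes called in either direction. The levels of mutants and controls did not overlap for 4 of the 8 members (Tcf7l1, Tcf7l2, Wif1 and Wnt4), beside 9.19% of all tested genes. All 7 called members were called again with the slide as a block, where 30.3% of genes were called. Slide 1 alone, with 18.1% of genes called, gave 3 members higher and 2 lower. Slide 2 alone, with 7.71% of genes called, gave 2 higher and 1 lower.

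**Figure D1:**
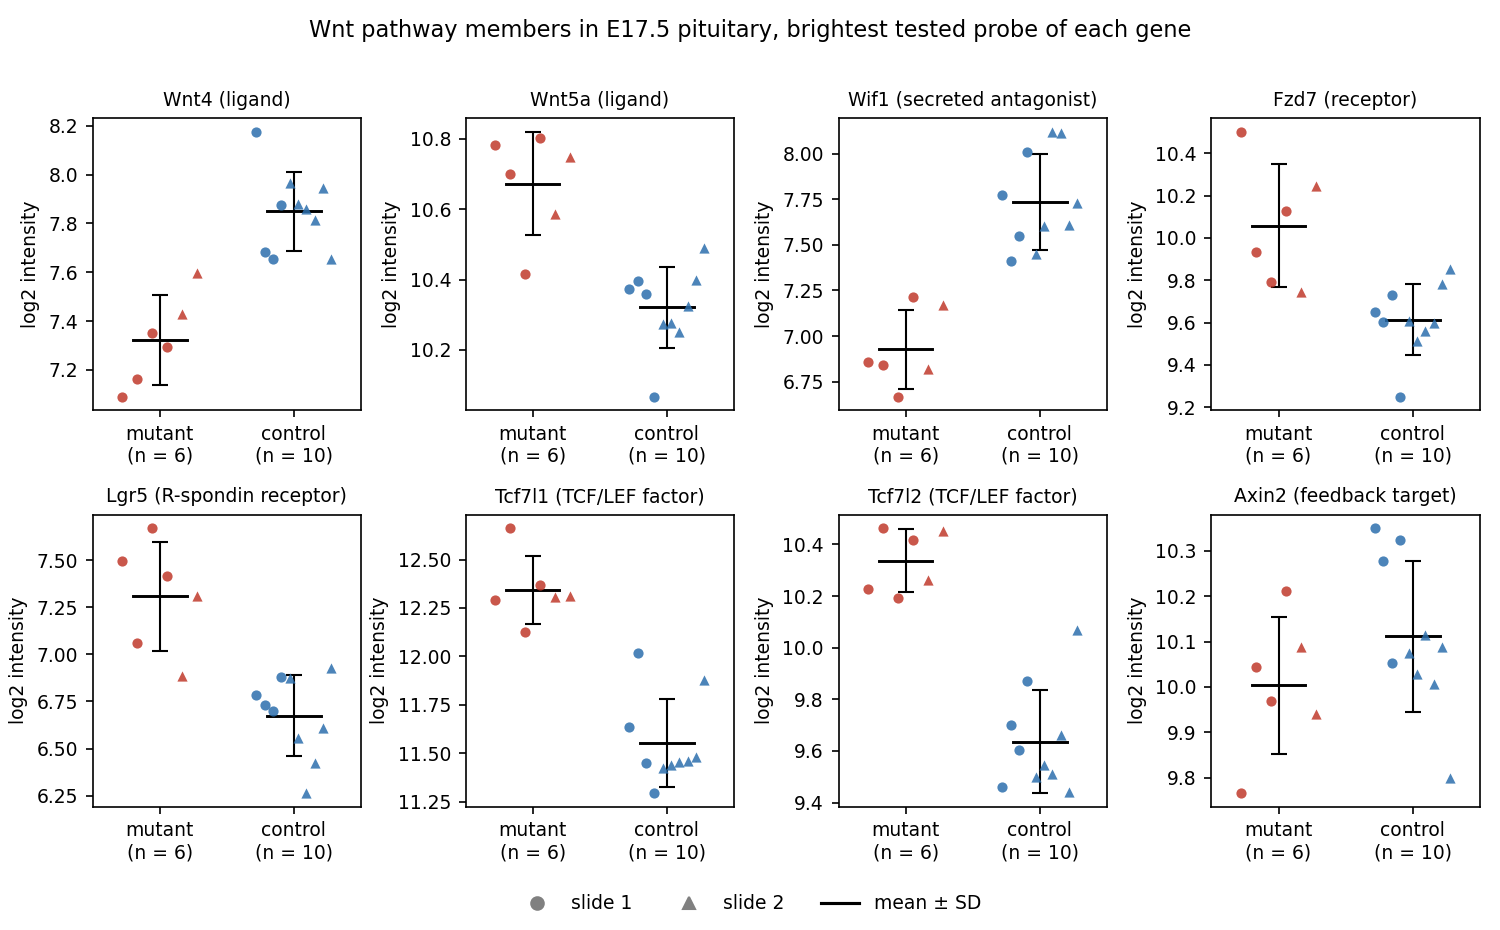
Log2 intensity of the brightest tested probe of each member gene, with 1 panel per gene, mutants (n = 6) left and controls (n = 10) right, points for single arrays (circles slide 1, triangles slide 2) and bars for mean ± SD. Each vertical axis has its own range. Mutants lie wholly above controls for Tcf7l1 and Tcf7l2 and wholly below them for Wnt4 and Wif1, and the Axin2 groups overlap.

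The promoters of the 4 genes whose groups did not overlap are shown, a choice made from these values. The 250 bases before the RefSeq start of each gene (build GRCm38.p6) are given 5′ to 3′ on the gene's strand, with capitals marking GC boxes, the letters GGGCGG or their complement CCGCCC, overlapping ones included. Tcf7l2 has 2 windows in the table, and the first is shown.
Wnt4: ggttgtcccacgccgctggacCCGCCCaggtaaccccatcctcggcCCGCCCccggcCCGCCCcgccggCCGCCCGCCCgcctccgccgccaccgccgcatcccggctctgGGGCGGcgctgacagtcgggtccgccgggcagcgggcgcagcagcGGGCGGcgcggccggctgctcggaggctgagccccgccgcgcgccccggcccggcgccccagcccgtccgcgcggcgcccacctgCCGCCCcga
Wif1: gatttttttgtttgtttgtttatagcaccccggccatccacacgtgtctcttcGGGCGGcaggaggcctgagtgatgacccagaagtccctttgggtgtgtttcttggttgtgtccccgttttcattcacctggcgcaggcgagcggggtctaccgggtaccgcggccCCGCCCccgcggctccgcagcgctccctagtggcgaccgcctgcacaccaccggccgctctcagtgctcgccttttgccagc
Tcf7l1: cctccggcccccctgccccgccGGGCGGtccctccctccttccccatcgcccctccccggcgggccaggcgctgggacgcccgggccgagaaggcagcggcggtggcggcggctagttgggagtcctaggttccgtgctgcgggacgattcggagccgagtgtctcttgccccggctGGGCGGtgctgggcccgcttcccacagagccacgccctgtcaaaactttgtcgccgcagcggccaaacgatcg
Tcf7l2: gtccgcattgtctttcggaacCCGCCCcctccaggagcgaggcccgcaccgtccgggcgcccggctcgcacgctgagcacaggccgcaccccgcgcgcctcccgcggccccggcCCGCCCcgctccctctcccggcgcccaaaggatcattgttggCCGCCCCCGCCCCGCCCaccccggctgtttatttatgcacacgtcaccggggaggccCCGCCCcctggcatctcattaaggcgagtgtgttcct
They lie at chr4:137277385-137277634 (plus strand), chr10:121033754-121034003 (plus strand), chr6:72789046-72789295 (minus strand) and chr19:55741560-55741809 (plus strand) for Wnt4, Wif1, Tcf7l1 and Tcf7l2. GC content was 85.2% for Wnt4, 73.6% for Tcf7l1, 72.8% for Tcf7l2 and 62.8% for Wif1, against a median of 52.4% over the 32851 windows of the table. Searched on both strands, a GC box was found in 9 of the 12 windows that the table holds for 8 of the members, some with several windows, and in 32.7% of all windows. The letters bound by TCF factors, CTTTGAA or CTTTGAT on either strand, were in 0 of the 12 windows of these members and in 7.48% of all windows, which says only that these letters are not in these stretches.

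Both ligands changed, in opposite directions. Wnt4, a ligand that acts with or without beta-catenin depending on the tissue, read 7.09, 7.32 and 7.60 (lowest, median and highest of 6) in mutants, against 7.65, 7.87 and 8.18 in the 10 controls (probe ILMN_2889641). Every mutant lay below every control, though the highest mutant, mutant 6, came close to the lowest controls. Mutants averaged 7.32 ± 0.18 (SD, n = 6) and controls 7.85 ± 0.16 (SD, n = 10), a change of -0.53 (SE 0.090, limma adjusted p = 0.000224). A second Wnt4 probe (ILMN_2512663) read 6.05, 6.27 and 6.66 in mutants, against 6.35, 6.72 and 7.40 in controls, with 5 of 6 mutants below the lowest control, control 10. It changed by -0.45 (SE 0.12, limma adjusted p = 0.00956). Within slide 1 the brighter probe changed by -0.62 (adjusted p = 0.00918) and within slide 2 by -0.34, which missed the threshold (adjusted p = 0.110). The second probe changed by -0.70 within slide 1 (adjusted p = 0.0141) and by -0.14 within slide 2 (adjusted p = 0.588).

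Wnt5a, a ligand best known for signalling without beta-catenin, read 10.42, 10.72 and 10.80 (lowest, median and highest) in mutants, against 10.07, 10.34 and 10.49 in controls (probe ILMN_2511913). 5 of the 6 mutants lay above the highest control, control 10, and mutant 3 lay between control 10 and the other 9 controls. Mutants averaged 10.67 ± 0.15 (SD, n = 6) and controls 10.32 ± 0.11 (SD, n = 10), and the signal rose by 0.35 (SE 0.074, limma adjusted p = 0.00144). The dimmer Wnt5a probe (ILMN_2472917) read 6.55, 6.78 and 6.98 in mutants, against 5.77, 6.24 and 6.72 in controls. With 3 of the 6 mutants above every control, it rose by 0.52 (SE 0.13, adjusted p = 0.00668). Neither probe was called within a single slide: the changes were 0.38 and 0.42 on slide 1 (adjusted p = 0.0634 and 0.0964) and 0.33 and 0.58 on slide 2 (adjusted p = 0.0948 and 0.165).

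Wif1, a secreted protein that binds Wnt ligands and keeps them from their receptors, read 6.67, 6.85 and 7.22 in mutants, against 7.41, 7.67 and 8.12 in controls (lowest, median and highest). Every mutant lay below every control. Mutants averaged 6.93 ± 0.22 (SD, n = 6) and controls 7.74 ± 0.26 (SD, n = 10), a change of -0.81 (SE 0.12, 95% interval -1.07 to -0.55, limma adjusted p = 6.5e-05), or a 1.75-fold lower signal. Both slides gave the call on their own, slide 1 at -0.79 (adjusted p = 0.0066) and slide 2 at -0.78 (adjusted p = 0.0466).

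Both receptors with a probe were higher in mutants. Fzd7, a Frizzled receptor of canonical and other Wnt branches, read 9.75, 10.03 and 10.50 in mutants, against 9.25, 9.61 and 9.85 in controls (lowest, median and highest). 4 of the 6 mutants lay above the highest control, which was control 10. Mutants averaged 10.06 ± 0.29 (SD, n = 6) and controls 9.61 ± 0.17 (SD, n = 10), and the signal rose by 0.44 (SE 0.11, limma adjusted p = 0.00535). Within slides it missed the threshold, with 0.53 for slide 1 (adjusted p = 0.0542) and 0.34 for slide 2 (adjusted p = 0.209).

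Lgr5, an R-spondin receptor and a Wnt target gene in several epithelia, where it marks stem cells, read 6.89, 7.36 and 7.67 in mutants, against 6.26, 6.72 and 6.93 in controls (lowest, median and highest). 5 of the 6 mutants lay above the highest control, and mutant 5 lay just below it. Mutants averaged 7.31 ± 0.29 (SD, n = 6) and controls 6.68 ± 0.21 (SD, n = 10), and the signal rose by 0.63 (SE 0.12, limma adjusted p = 0.000632), or 1.55-fold. The rise was 0.64 within slide 1 (adjusted p = 0.00807) and missed the threshold within slide 2 (0.49, adjusted p = 0.166).

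The TCF factors Tcf7l1 and Tcf7l2 had the largest rises among the members. Tcf7l1, which mostly represses Wnt target genes when beta-catenin is absent, read 12.13, 12.31 and 12.66 in mutants, against 11.29, 11.46 and 12.02 in controls (probe ILMN_3109289). Every mutant lay above every control, and 8 of the 10 controls lay at or below 11.63, with only controls 10 (11.88) and 2 (12.02) above. Mutants averaged 12.34 ± 0.18 (SD, n = 6) and controls 11.55 ± 0.23 (SD, n = 10), and the signal rose by 0.79 (SE 0.11, 95% interval 0.57 to 1.01, limma adjusted p = 1.79e-05), or 1.73-fold. The rise was 0.76 within slide 1 (adjusted p = 0.0115) and 0.79 within slide 2 (adjusted p = 0.0107).

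A second Tcf7l1 probe (ILMN_2771781) was much dimmer, above background in 6 of 6 mutants and 7 of 10 controls. It read 5.98, 6.29 and 6.86 in mutants, against 5.06, 5.62 and 5.92 in controls (lowest, median and highest), again without overlap. It rose by 0.72 (SE 0.14, limma adjusted p = 0.00102), close to the change of the brighter probe. Within slide 1 it just missed the threshold (0.75, adjusted p = 0.0515), and within slide 2 it passed (0.68, adjusted p = 0.0454).

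Tcf7l2, a TCF factor that can activate or repress Wnt targets, read 10.19, 10.34 and 10.46 in mutants, against 9.44, 9.57 and 10.07 in controls (probe ILMN_2641647). The groups did not overlap, and the control nearest to the mutants was control 10, at 10.07 against 9.44 to 9.87 in the other 9 controls. Mutants averaged 10.34 ± 0.12 (SD, n = 6) and controls 9.64 ± 0.20 (SD, n = 10), and the signal rose by 0.70 (SE 0.093, 95% interval 0.51 to 0.90, limma adjusted p = 1.54e-05), or 1.62-fold. The rise was 0.67 within slide 1 (adjusted p = 0.00332) and 0.74 within slide 2 (adjusted p = 0.0299).

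A second Tcf7l2 probe (ILMN_3006739) differed between slides as well as between genotypes. Over all arrays it read 7.88, 8.16 and 8.69 in mutants, against 7.30, 7.84 and 8.22 in controls (lowest, median and highest), and the groups overlapped. Within slide 1 the mutants read 7.88 to 8.28 and the controls 7.30 to 7.62, and within slide 2 the mutants read 8.65 to 8.69 and the controls 7.80 to 8.22. Within each slide, then, every mutant lay above every control. Without the slide in the fit it rose by 0.44 (SE 0.16, limma adjusted p = 0.0461), and that call was lost when mutant 1, 5 or 6 or control 1, 2, 3, 4, 6 or 9 was left out (0.35 to 0.45, adjusted p from 0.0562 to 0.117). It was also lost with median scaling, cyclic loess, the deposited normalised values, no filter on dim probes or array weights (adjusted p from 0.0515 to 0.0903). A block for the slide gave a rise of 0.60 (adjusted p = 4.06e-05), within slide 1 it was 0.55 (adjusted p = 0.0103) and within slide 2 it was 0.65 (adjusted p = 0.0175). The third Tcf7l2 probe (ILMN_1245997) was above background on 0 of 16 arrays.

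**Figure D2:**
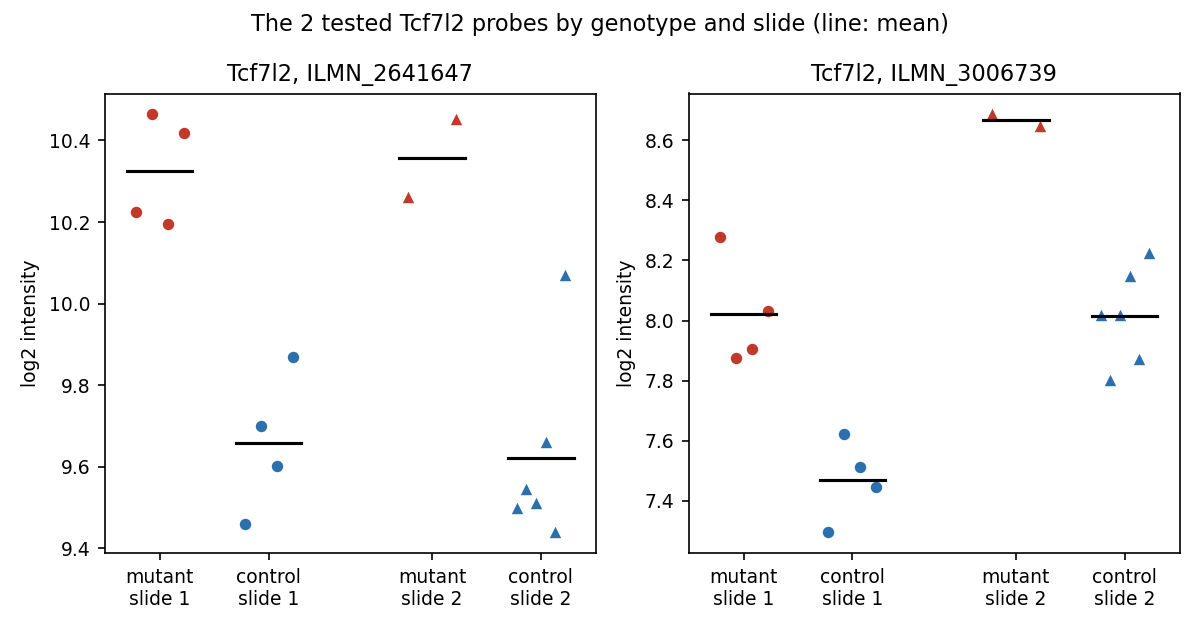
Log2 intensity of the 2 tested Tcf7l2 probes by genotype and slide, with points for single arrays and lines for means. On the right, probe ILMN_3006739 lies higher on slide 2 than on slide 1 in both genotypes, and mutants lie above controls within each slide. On the left, probe ILMN_2641647 shows similar levels on both slides.

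Lef1, a TCF/LEF factor that activates targets with beta-catenin, was near background in both genotypes. Its brighter probe (ILMN_2648475) was above background in 1 of 6 mutants and 0 of 10 controls, and the other (ILMN_1239469) on 0 of 16, so neither entered the test. The brighter one read 4.92, 5.13 and 5.56 in mutants, against 4.42, 4.59 and 5.07 in controls (lowest, median and highest), a difference of 0.49. With no filter on dim probes that difference passed the threshold (limma adjusted p = 0.00823), but at these intensities it is not a measured level of Lef1.

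Axin2 encodes a scaffold of the complex that degrades beta-catenin, and its own transcription is a widely used readout of canonical Wnt activity. Its probe read 9.77, 10.01 and 10.21 in mutants, against 9.80, 10.08 and 10.35 in controls (lowest, median and highest), and the groups overlapped almost completely. Mutants averaged 10.00 ± 0.15 (SD, n = 6) and controls 10.11 ± 0.17 (SD, n = 10), a difference of -0.11 (SE 0.087, 95% interval -0.29 to 0.07, limma adjusted p = 0.39). A change of the size seen for Tcf7l1, Tcf7l2 or Wif1 lies outside that interval. The difference was -0.25 within slide 1 (adjusted p = 0.201) and -0.0041 within slide 2 (adjusted p = 0.987).

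**Figure D3:**
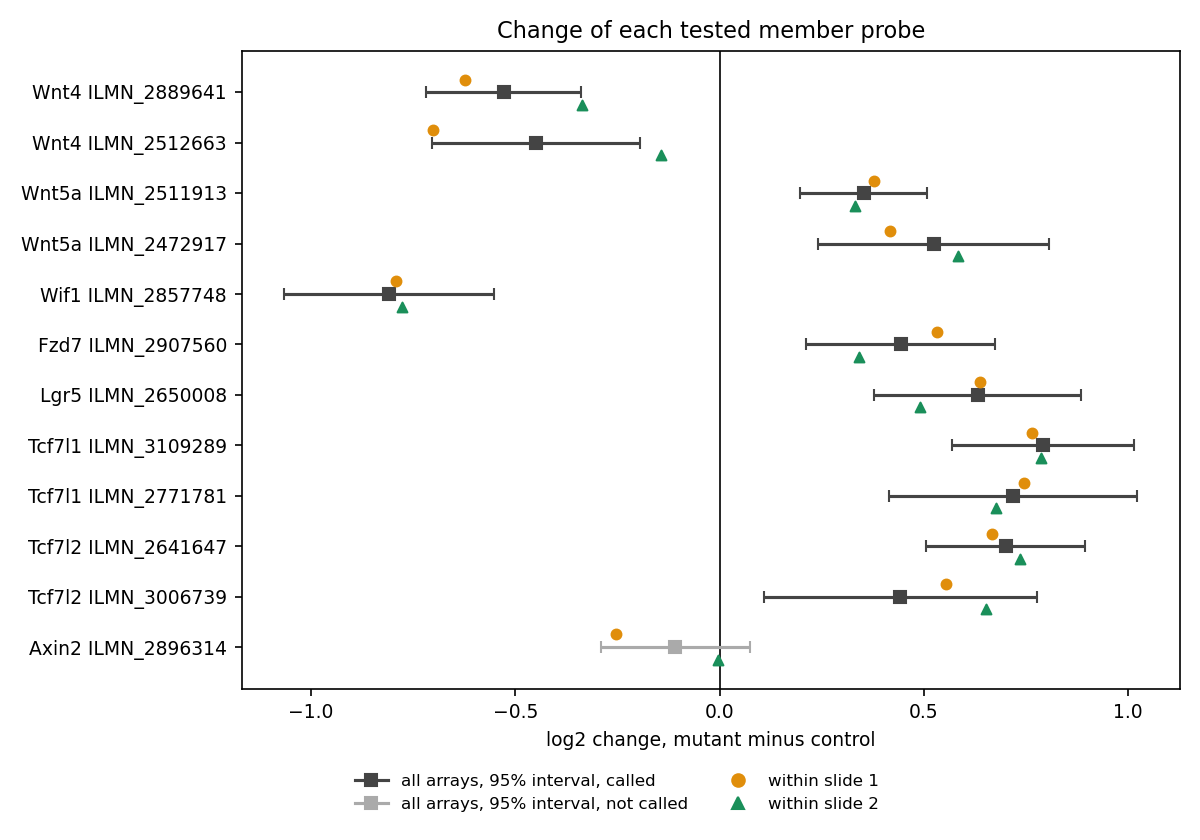
Log2 change, mutant minus control, of each of the 12 tested member probes, with squares and bars for the estimate over all arrays and its 95% interval, circles for slide 1 and triangles for slide 2. The 2 Wnt4 probes and Wif1 lie left of 0, the Wnt5a, Fzd7, Lgr5, Tcf7l1 and Tcf7l2 probes lie right of it, and only the Axin2 interval spans 0.

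Where several probes of a member were tested, they moved in the same direction, as for both probes of Wnt4, Wnt5a, Tcf7l1 and Tcf7l2. Among the controls, control 10 lay nearest to the mutants for the brighter probes of Wnt4 (7.65, level with another control), Wnt5a (10.49), Fzd7 (9.85), Lgr5 (6.93) and Tcf7l2 (10.07), but not for Wif1 (7.73) or Tcf7l1 (11.88). Without control 10 the changes were -0.55 for Wnt4, 0.37 for Wnt5a, 0.47 for Fzd7, 0.66 for Lgr5, 0.83 for Tcf7l1, 0.75 for Tcf7l2 and -0.81 for Wif1, and the same 7 members were called. For Axin2, control 10 was the lowest control (9.80), and without it the difference was -0.14 (adjusted p = 0.208).

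Other genes of the pathway were read from a list of 87, of which 81 had a probe and 46 passed the detection filter. 10 rose and 8 fell (39.1%), with a median change of 0.18, against 29.9% of all genes called and a median of 0.033. Of 17 other ligands only 4 passed the filter. Wnt7b rose by 0.52 (SE 0.099, limma adjusted p = 0.000673) and Wnt5b by 0.40 (SE 0.11, adjusted p = 0.00848), while Wnt10a was lower in mutants (adjusted p = 0.000962). The Wnt7b probe was above background in 6 of 6 mutants and 7 of 10 controls, and a second Wnt7b probe was above background nowhere. Wnt10a was above background in only 1 of 6 mutants and 9 of 10 controls, so its fitted difference of -0.57 rests on mutant signals near background. The 2 genes needed to release ligands were also higher, with rises of 0.49 for Wls, their carrier to the cell surface, and 0.26 for Porcn, the enzyme that attaches their lipid (adjusted p = 0.0269 and 0.0213). A second, dimmer Porcn probe was not called (0.093, adjusted p = 0.653). The Wls call was lost without mutant 4 or 6 (adjusted p = 0.0789 and 0.0598), and the Porcn call without mutant 1, 3 or 5 (adjusted p = 0.057, 0.0581 and 0.0544) or with median scaling (adjusted p = 0.0562).

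Receptors other than Fzd7 held 2 of the larger differences. Fzd6, a Frizzled receptor of planar polarity, read 9.68, 9.82 and 10.05 in mutants, against 7.93, 8.67 and 9.42 in controls (lowest, median and highest). The groups did not overlap, and it rose by 1.30 (SE 0.18, limma adjusted p = 2.57e-05). Ror2, a receptor kinase for Wnt5a, read 8.08, 8.44 and 8.91 in mutants, against 9.15, 9.72 and 10.30 in controls. The groups did not overlap, and Ror2 fell by 1.25 (SE 0.17, limma adjusted p = 1.57e-05). Both were called within each slide, Fzd6 with adjusted p = 0.00057 and 0.0465 and Ror2 with adjusted p = 0.000308 and 0.00565 on slides 1 and 2. Fzd8 rose by 0.50 (SE 0.083, adjusted p = 0.000172), and in all 3 of 10 tested receptors rose and 1 fell. The other receptor that rose was Fzd3 (0.40, adjusted p = 0.021), named after its value was seen. Fzd1 missed the threshold (0.60, adjusted p = 0.0635) but was called with a block for the slide (0.80, adjusted p = 0.000872) and within slide 1 (0.84, adjusted p = 0.0227).

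Among 5 tested antagonists other than Wif1, only Apcdd1, a membrane inhibitor of Wnt signalling, was called. It was above background in 0 of 6 mutants and 9 of 10 controls, so only a bound can be given, a signal at least 1.28-fold lower in mutants (limma adjusted p = 0.000287). Of the R-spondin genes and their other partners, only Rspo3 passed the filter (change -0.0052, adjusted p = 0.982). The 7 cytoplasmic transducers tested, beta-catenin (Ctnnb1) among them, held 0 calls in limma, with changes from -0.12 to 0.38 and 1 at an unadjusted p under 0.05. With a block for the slide Ctnnb1 was called (0.21, adjusted p = 0.0157), against 0.13 without it (adjusted p = 0.35). A second, dimmer Ctnnb1 probe was not called with that block (0.20, adjusted p = 0.121).

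In the nucleus, the TLE corepressors that bind TCF factors went both ways. Tle1 rose by 0.58 (SE 0.12, limma adjusted p = 0.0013) and Tle4 fell by 0.30 (SE 0.076, adjusted p = 0.00583). Of the dimmer Tle1 probes, 2 were called higher (0.72 and 0.38, adjusted p = 0.000593 and 0.0261) and another was not called (0.42, adjusted p = 0.0913). For Tle4, 2 dimmer probes were not called (-0.17 and 0.015). Among other target genes Sp5, a zinc finger factor induced by canonical Wnt signals, read 6.87, 7.17 and 7.24 in mutants, against 7.68, 8.33 and 8.48 in controls. Its groups did not overlap, with control 10 the lowest control, and it fell by 1.14 (SE 0.10, adjusted p = 2.08e-07), in contrast to Axin2, which was not called, and Lgr5, which rose. The difference between these genes was not tested. Ccnd1 (cyclin D1) fell by 0.27 (adjusted p = 0.0296), a call lost without mutant 1 or 5 (adjusted p = 0.077 and 0.0737). Cd44 rose by 0.24 (adjusted p = 0.0495), a call also lost with a block for the slide (0.18, adjusted p = 0.0733) and when any of 13 arrays was left out, mutants 1, 2, 3, 4 and 6 and controls 3 to 10 (adjusted p from 0.0535 to 0.13). It was lost as well with no background correction, an offset of 50, median scaling, cyclic loess, no filter on dim probes or a trended variance (adjusted p from 0.0583 to 0.161).

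Planar polarity genes, which orient cells in a sheet through a branch shared with Wnt receptors, held the largest change of the list. Celsr3, a cadherin of this branch best known in neurons, read 8.79, 9.09 and 10.06 in mutants, against 10.79, 11.59 and 11.72 in controls. The groups did not overlap, and Celsr3 fell by 2.29 (SE 0.16, limma adjusted p = 9.89e-09), and was called within each slide. Vangl1 fell by 0.39 (SE 0.12, adjusted p = 0.0206), a call lost without mutant 4 (adjusted p = 0.0501), and Vangl2 rose by 0.31 (SE 0.080, adjusted p = 0.0069). Celsr1 missed the threshold (0.64, adjusted p = 0.0593) but was called with a block for the slide (0.87, adjusted p = 0.000117) and within each slide (adjusted p = 0.0082 and 0.0292). That block gave 13 genes of the list higher and 8 lower, with Fzd1, Celsr1, Ctnnb1 and Ctnnbip1 called in addition and Cd44 no longer called. These 4 were named after their values were seen. Of the 18 genes of the wider list named here as called, Fzd6, Ror2, Sp5 and Celsr3 passed within both slides. Wnt7b, Wnt10a, Wls, Fzd8, Apcdd1 and Tle1 passed within slide 1 only, Wnt5b within slide 2 only, and Fzd3, Porcn, Tle4, Ccnd1, Cd44, Vangl1 and Vangl2 within neither, with the same sign throughout.

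**Figure D4:**
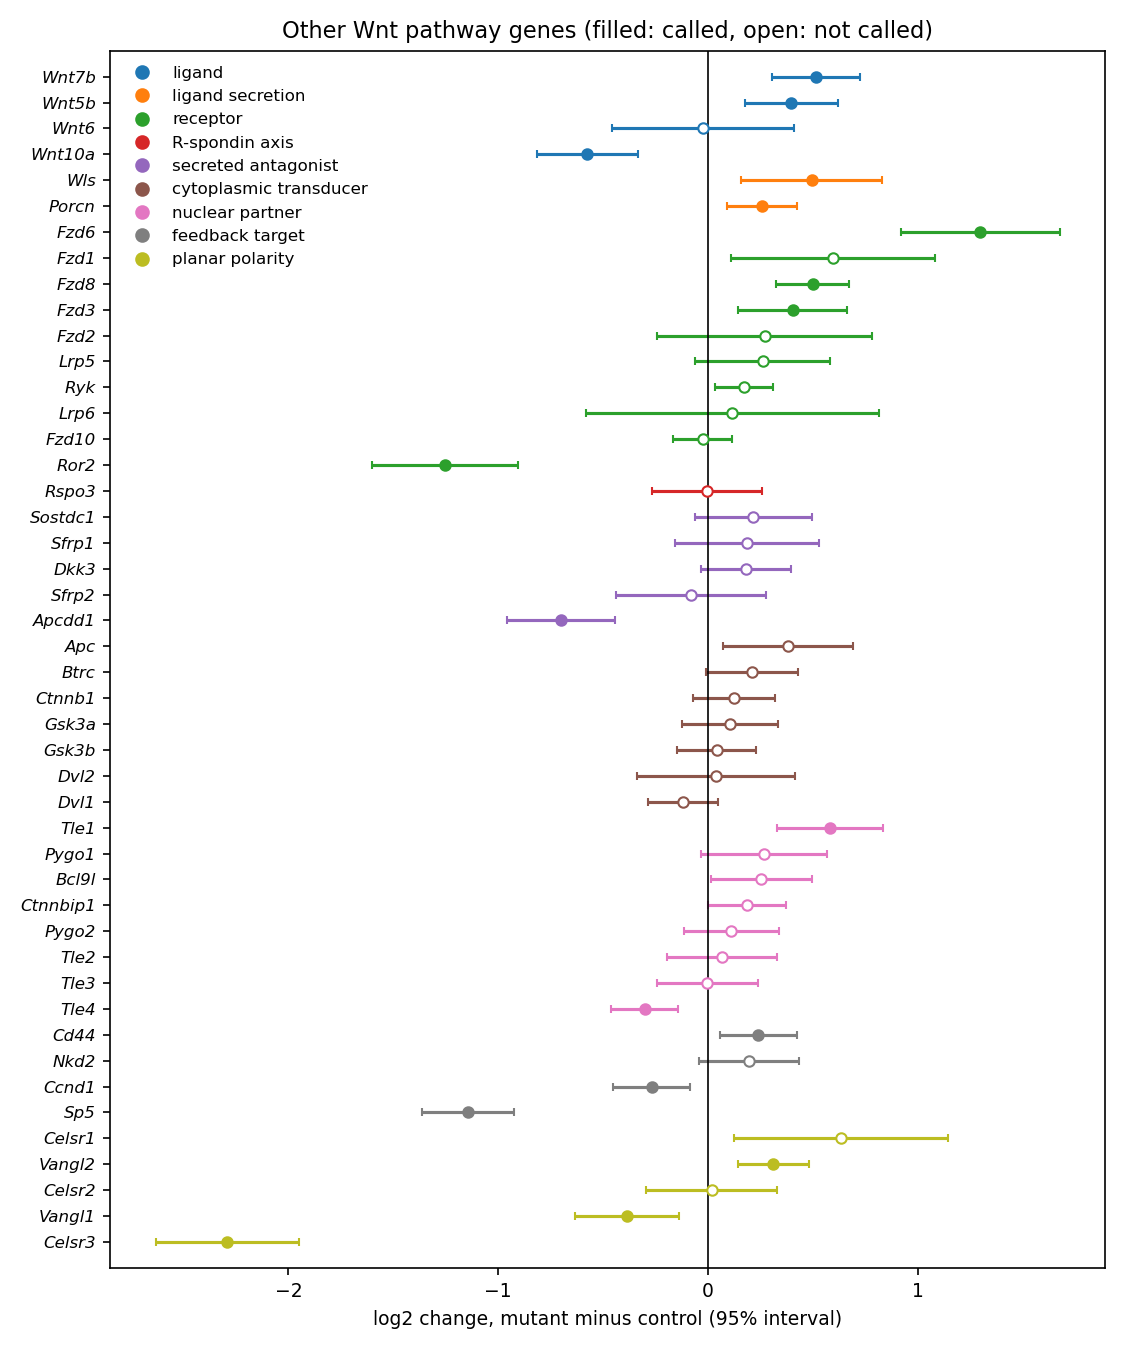
Log2 change, mutant minus control, with 95% interval for each of the 46 tested genes of the wider Wnt list, coloured by role, filled where called and open where not. Celsr3, Ror2 and Sp5 lie farthest left, Fzd6 farthest right, and the cytoplasmic transducers hold no filled point. The Apcdd1 point is the fitted value, with its mutants not above background.

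Markers of several cell types moved with genotype in the same arrays. Of 5 tested progenitor markers 3 rose, Sox21 by 1.66, Klf5 by 0.53 and Sox9, named after its value was seen, by 0.50. The brighter probe of Sox2, a factor of pituitary progenitors, missed the threshold (0.54, adjusted p = 0.141) but was called with a block for the slide (0.81, adjusted p = 0.000243) and within each slide (adjusted p = 0.0112 and 0.0388). Its second probe rose by 0.85 (adjusted p = 0.000612). For this list the log2 of the summed signal of the tested markers was 11.32 to 11.74 for mutants and 10.64 to 11.22 for controls. Gfra2 was above background nowhere. All 9 tested skeletal muscle markers rose, Myod1 and Tnnt1 with the smallest adjusted p-values, and their summed signal was 13.84 to 14.42 in mutants, against 10.08 to 10.40 in 9 controls and 13.39 in control 10. Ckm was above background nowhere. Of 4 tested markers of posterior lobe glia 2 rose, Aqp4 by 1.17 and Slc1a3 by 0.34, and the summed signal was 11.56 to 12.16 in mutants and 11.39 to 11.81 in controls, with Gfap, S100b and Fabp7 above background nowhere. All 5 tested macrophage markers rose (Tyrobp and Aif1 first by adjusted p), with a summed 10.42 to 10.60 in mutants and 9.79 to 10.15 in controls, and Fcer1g was above background nowhere.

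Of 8 tested mesenchyme markers 1 fell, Prrx1 (a change of -0.43, lost without mutant 1 or 3, adjusted p = 0.0552 and 0.0507). Its second probe was not called, at 0.10, and a dimmer one was called lower (-0.47, adjusted p = 0.0228). For this list the sum was 14.02 to 14.66 in mutants and 13.95 to 14.60 in controls. With a block for the slide Col1a2 was called higher (0.67, adjusted p = 0.0218), against 0.50 without it (adjusted p = 0.153). The 1 cartilage marker tested, Col2a1, rose by 0.81 (9.39 to 10.43 in mutants and 8.62 to 9.62 in controls), while Comp and Hapln1 were above background nowhere. Of 4 tested markers of smooth muscle and pericytes Acta2 rose by 1.51, with a sum of 10.35 to 11.23 in mutants and 9.08 to 10.98 in controls and with Myh11 and Tagln above background nowhere. Endothelial markers held 0 calls of 6 in limma (0 at an unadjusted p under 0.05), with a sum of 13.26 to 13.60 in mutants and 13.10 to 13.45 in controls, and Kdr was above background nowhere. Erythroid markers held 0 of 3 (0 unadjusted), at 15.53 to 15.64 in mutants and 15.46 to 15.57 in controls. Most of that sum was Hba-a1, which read the same 15.46 on every mutant array, at or near the top of the scale. The sum could therefore hardly show a change. Within slide 2 Alas2 was called higher (0.58, adjusted p = 0.046) and Slc4a1 just missed the threshold (0.70, adjusted p = 0.0509). Of 7 tested neuron markers 3 fell, Syt1 by 0.54, Elavl3 by 0.98 and Elavl4, named after its value was seen, by 0.39, with a sum of 11.68 to 12.03 in mutants and 11.88 to 12.35 in controls, and Nefl, Snap25 and Tubb3 were above background nowhere. Map2 was called lower with a block for the slide (-0.32, adjusted p = 0.0101), against -0.24 without it (adjusted p = 0.0935). Within slide 2 alone Klf5, Tyrobp, Aif1, Col2a1, Acta2, Syt1 and Elavl3 missed the threshold, and Prrx1 and Slc1a3 missed it within both slides. The part of these shifts in the changes of the Wnt genes was not tested.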

How the data were processed

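Per the file headers, the deposited table gives every probe a bead signal intensity and, beside it, its detection p-value, for 16 arrays and 25697 probes. The submitters' processing notes name GenomeStudio without a version. No intensity lay at or below 0 and array medians differed, so the values were taken as not normalised. The deposited series matrix, read from its values as background-subtracted and quantile-normalised intensity, served as an alternative.

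Limma's nec (offset 16) removed the background, arrays were then quantile-normalised, and log2 values were fitted (limma 3.58.1, R 4.3.3). The 13813 probes whose detection p-value was under 0.01 on 6 or more arrays were tested. Genotype was the only term given to lmFit and eBayes, p-values were adjusted by Benjamini-Hochberg over the tested probes, and every adjusted p is limma's. The number of arrays limits the precision. The fit was tested on simulated data.

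Symbols came from the platform annotation, 23978 probes with 1 and 1719 with none, of which 23962 matched RefSeq (GRCm38.p6) by Entrez identifier. Groups and replicate numbers came from the sample titles, and slides from the array names. Named were all members and their probes, Insm1, the hormones, in each role of the wider list the 3 called genes with the smallest adjusted p, and 2 per marker list. Members and lists were chosen with earlier results of these data known. Same-numbered mutants and controls did not count as pairs in the main fit. Their deviations, not corrected for the slide that same-numbered samples share, correlated at 0.04 to 0.478. Among controls 1 to 6, the only ones compared, every mutant except number 3 correlated best with its own number. Alternatives covered background, normalisation, filter, slide, variance, weights, probe choice and single arrays.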

Additional observations from a re-analysis of the deposited data

Results flagged for a closer look

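In 9 of 98 groups of values examined, 1 array stood far from the rest of its group, where chance gives about 1 in 20. Control 1 was the highest control for the second Wnt4 probe (7.40, next 6.81). Control 10 was the lowest control for Celsr3 (10.79, next 11.40), Sp5 (7.68, next 8.09) and Tshb (13.84, next 14.20), and the highest for Myod1 (5.27, next 4.74) and Tnnt1 (9.74, next 8.87). Among mutants, mutant 5 was the highest for Celsr3 (10.06, next 9.26), mutant 3 for Elavl3 (7.54, next 6.48) and mutant 4 for Klf5 (10.92, next 10.55).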

How the results depend on the processing

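The member counts, 5 higher and 2 lower, were the same with no background correction, an offset of 50, median scaling, cyclic loess, the deposited normalised values, the stricter filter, the slide as a block, a trended variance, array weights, the second brightest probe and each array left out. With no filter on dim probes 6 were higher, Lef1 being the addition, and 17.2% of all genes were called. Within slide 1 there were 3 members higher, and within slide 2 there were 2 higher and 1 lower. In the wider list, 10 higher and 8 lower, 5 were lower within slide 1, and 3 were higher and 3 lower within slide 2, where fewer samples were compared. With single arrays left out the wider counts ran from 7 to 12 higher and from 7 to 8 lower. No change reversed its sign under any alternative for the tested member probes, Insm1, the hormones and the genes picked by smallest adjusted p. Genes named for other reasons, such as Fzd3, Sox2 and Rspo3, were not put through all alternatives. Rspo3 changed by -0.0052 in the main fit and by 0.084 within slide 1, neither called. A dimmer Tle4 probe changed by -0.17 in the main fit and by 0.24 within slide 2, neither called. Replicate numbers 1 to 6 occur in both groups, and the main fit did not pair them. Deviations of same-numbered samples, which lay on the same slide, correlated at 0.04 to 0.478 with no correction for the slide. Among controls 1 to 6, the only ones compared, 5 of 6 mutants correlated best with their own number. What these numbers stand for was not tested. The replicate block over those 12 samples gave 5 members higher and 2 lower, as did the fit without it, and 15 genes of the wider list higher against 8 without the block. Over all genes tested, 30.7% were called with that block and 24.9% without it. Signal over background limits Lef1, Apcdd1, Wnt10a and, in some controls, Wnt7b.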
